A study of Homo sapiens with 9 samples.

Results

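The 9 genes described here are SIX2, SIX4, EYA1, PAX2, PAX8, LHX1, WT1, SALL1 and OSR1, a named set of transcription regulators of the embryonic kidney. They were matched by symbol to Ensembl identifiers, and all 9 were found among the 57338 genes of the expression table. RNA was measured in HEK293T cells, a line derived from human embryonic kidney that carries the SV40 large T antigen. Every group received a plasmid by transient transfection and was sorted for live cells with high EGFP signal 3 days later. The empty vector cells expressed EGFP alone, the hPRM1 cells a fusion of human PRM1 with EGFP, and the hPRM2 cells a fusion of human PRM2 with EGFP. Each group had 3 libraries, which the labels number 1 to 3 without saying whether they came from separate cultures, so p-values measure the spread between these libraries only. Protamines are the small basic proteins that replace most histones in sperm, and the comparison asks what either of them does to the transcripts of a somatic cell.

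In the embryo, the kidney arises from intermediate mesoderm. OSR1, LHX1, PAX2 and PAX8 mark that tissue early and act in its development. EYA1, a phosphatase and coactivator without DNA binding of its own, works with homeodomain partners and switches on kidney genes in the metanephric mesenchyme. SIX2 keeps nephron progenitors from differentiating, the zinc finger proteins SALL1 and WT1 act in the same mesenchyme, and LHX1 and PAX8 are used again when progenitors form nephron epithelium. WT1 stays on in the podocytes of the adult glomerulus.

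RPKM values (reads scaled by library size and by kilobases of length) are used as deposited, and log2 differences refer to log2(RPKM + 1), a scale that understates the change of low genes. The libraries held 7927620 to 10785225 reads on genes for the empty vector, 4210691 to 5863043 for those labelled hPRM1 and 1273276 to 2652547 for hPRM2, as recovered from the steps between low values. A 0 leaves room for as many as 3 reads, a ceiling of 0.378 RPM (reads scaled by the library alone, without length) in the empty vector, of 0.712 RPM in the libraries labelled hPRM1 and of 2.36 RPM in hPRM2, for counting error only. PRM2 was at 36130 to 71224 RPKM in the hPRM2 libraries and at 0 in the other 6. PRM1 was listed at 0 in all 9, those labelled hPRM1 included, so that group is named by its label throughout and each direction given for it rests on that label. The library names in the sample descriptions number these 3 in a range away from that of the other 6, so a difference between library batches and one between conditions cannot be told apart. hPRM2 replicate 1 stood apart from the other two, with 9652 genes above 0 against 14353 and 15633 in shallower libraries.

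HEK293T markers, a list of 12 genes that includes NEFM and GAL, summed to 279 to 323 RPKM in the empty vector and to 226 to 316 RPKM in hPRM2. In the libraries labelled hPRM1 the same list summed to 0.188 to 0.577 RPKM, with NEFM and GAL at 0. Markers of red cells (12 genes) summed to 2060740 to 2267210 RPKM there, against 115 to 254 with the empty vector and 91.4 to 219 with hPRM2. Neutrophil and monocyte markers (13 genes) reached 6712 to 7801 RPKM in the libraries labelled hPRM1, against 40.1 to 41.3 in the empty vector and 16 to 49 in hPRM2. Lymphocyte markers (14 genes) reached 977 to 1340 RPKM against 0.844 to 4.71 and 35.4 to 71, and platelet markers (8 genes) 341 to 603 RPKM against 16.9 to 32.1 and 8.61 to 14. Outside the libraries labelled hPRM1, most of the red cell sum was SLC25A39. It was at 122, 108 and 236 RPKM in the empty vector and at 216, 85.7 and 77.6 RPKM in hPRM2. VCAN, at 40.7, 38.0 and 39.8 RPKM, made up most of the neutrophil and monocyte sum in the empty vector. The labelled cell type is therefore not borne out by its markers in the libraries labelled hPRM1, and the blood markers move with every difference given below for that group. Their part in those differences was not tested.

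**Figure D1:**
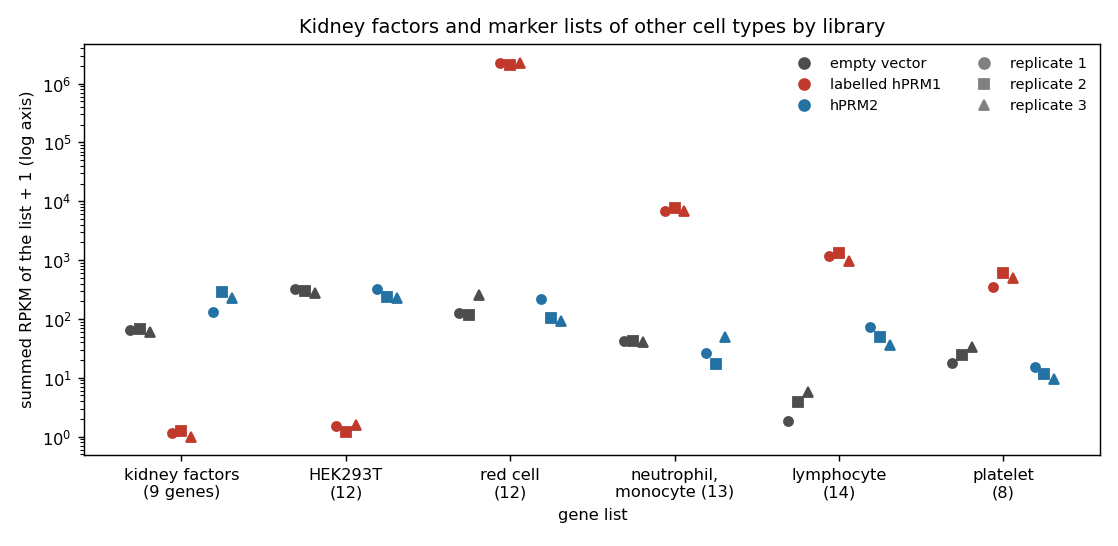
Summed RPKM plus 1 on a log axis for the 9 kidney factors and for marker lists of HEK293T cells and blood cells, 1 point per library, with colour for the group and shape for the replicate number. The kidney factors and the HEK293T markers are near the bottom of the axis in the 3 libraries labelled hPRM1, where the red cell markers reach 2060740 RPKM or more.

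The promoters of 3 of the genes are shown because they set a paralog pair that HEK293T cells express, SIX2 and SIX4, beside PAX8, for which no reads were counted in the empty vector or in hPRM2. Each run is the 250 bases before the transcript start in RefSeq (GRCh38.p14), on the minus strand, written 5′ to 3′, at chr2:45009453-45009702 for SIX2, chr14:60724352-60724601 for SIX4 and chr2:113278922-113279171 for PAX8. Capitals mark the CCAAT box, with the letters CCAAT. They also mark the GC box, with the letters GGGCGG. The TATA box, with the letters TATAAA, was searched as well, each motif on both strands, and no matches overlap one another here.
SIX2: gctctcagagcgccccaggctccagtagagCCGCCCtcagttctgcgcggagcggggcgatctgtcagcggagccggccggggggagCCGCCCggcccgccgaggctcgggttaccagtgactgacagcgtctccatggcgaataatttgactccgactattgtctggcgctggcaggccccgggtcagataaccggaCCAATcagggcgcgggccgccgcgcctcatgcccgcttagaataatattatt
SIX4: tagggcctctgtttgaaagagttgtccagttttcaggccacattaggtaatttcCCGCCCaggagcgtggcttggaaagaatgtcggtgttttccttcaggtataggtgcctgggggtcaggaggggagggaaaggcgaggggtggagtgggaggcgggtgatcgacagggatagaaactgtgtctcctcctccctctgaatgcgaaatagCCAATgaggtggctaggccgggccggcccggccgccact
PAX8: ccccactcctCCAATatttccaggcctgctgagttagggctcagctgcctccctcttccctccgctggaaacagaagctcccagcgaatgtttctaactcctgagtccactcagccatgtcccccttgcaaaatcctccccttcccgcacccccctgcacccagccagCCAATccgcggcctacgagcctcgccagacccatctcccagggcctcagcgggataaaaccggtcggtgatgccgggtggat
SIX2 had a CCAAT box 52 bases before its start and GC boxes at 220 and 163 bases, and SIX4 had a CCAAT box at 39 bases and a GC box at 196. PAX8 had CCAAT boxes at 240 and 82 bases and no GC box in this window. RefSeq windows matched 5 of the 9 genes (SIX2, SIX4, PAX2, PAX8 and WT1), and of these 3 held a CCAAT box, 2 a GC box and 0 a TATA box. Among 35116 promoters of the same length, 32.0% held a CCAAT box, 42.6% a GC box and 10.7% a TATA box. The SIX2 window was the richest of the 5 in CpG, with 26 CpG in 250 bases against 11 in SIX4, 11 in PAX8, 15 in PAX2 and 18 in WT1, and the median over all promoters was 11. The letters describe the windows only.

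In the empty vector, 7 of the 9 genes were above 0 in all 3 libraries, and SIX2 and LHX1 had the highest levels per length. SIX2 (ENSG00000170577, chromosome 2, 45005161 to 45009430 in GENCODE 29 on GRCh38, 1 transcript) was at 27.3, 28.7 and 21.4 RPKM, a mean of 25.8 ± 3.86 RPKM (SD, n = 3). These values stood on 423, 479 and 451 reads. LHX1 (ENSG00000273706, chromosome 17, 36936785 to 36944612) was at 21.2, 23.0 and 10.7 RPKM, a mean of 18.3 ± 6.64 RPKM (SD, n = 3), and its range met that of SIX2. No library of the next gene reached the lowest LHX1 library.

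SIX4 (ENSG00000100625, chromosome 14, 60709528 to 60724348) was next, at 6.12, 4.79 and 8.39 RPKM, a mean of 6.43 ± 1.82 RPKM (SD, n = 3). EYA1 (ENSG00000104313, chromosome 8) was at 1.93, 3.43 and 5.78 RPKM, with a mean of 3.72 ± 1.94 RPKM (SD, n = 3). WT1 (ENSG00000184937, chromosome 11, 32387775 to 32435630) was at 2.33, 1.32 and 7.28 RPKM, with a mean of 3.64 ± 3.19 RPKM (SD, n = 3), the widest relative spread of the 7. SALL1 (ENSG00000103449, chromosome 16, 51135975 to 51151367) was at 3.45, 3.10 and 4.26 RPKM and kept close to its mean of 3.61 ± 0.593 RPKM (SD, n = 3). Neighbours among SIX4, EYA1, WT1 and SALL1 overlapped in their ranges, so their order is not resolved. PAX2 (ENSG00000075891, chromosome 10, 100735603 to 100829941) had the lowest mean of the 7, at 1.52, 3.00 and 1.34 RPKM, with a mean of 1.95 ± 0.909 RPKM (SD, n = 3). Its libraries were all below those of SIX4 and SALL1 and overlapped those of EYA1 and WT1.

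OSR1 and PAX8 were at the limit of the measurement. OSR1 (ENSG00000143867, chromosome 2, 19351485 to 19358653) was at 0.898 RPKM in empty vector replicate 1, which stood on 12 reads, and at 0 in the other 8 libraries. PAX8 (ENSG00000125618, chromosome 2, 113215997 to 113278950) was at 0 in all empty vector and hPRM2 libraries and at 0.151, 0.235 and 0 RPKM in the libraries labelled hPRM1, a level of about 3 reads. PAX8 overlaps the antisense gene PAX8-AS1 over 60585 bases, and PAX8-AS1 was at 5.23, 3.54 and 0 RPKM in the same libraries. Whether counting used the strand is not given in the sources used here, so reads of this pair cannot be told apart. In HEK293T cells SIX2 and LHX1 thus stood above the other 7 genes in RPKM in each empty vector library. Without scaling by length this order did not hold. In replicate 3, SIX4 was at 50.6 RPM, at the length that gave whole reads, against 41.8 RPM for SIX2. With its shortest transcript LHX1 was at 2.82 to 6.04 RPM over the empty vector libraries, against 28.9 to 50.6 RPM for SIX4.

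**Figure D2:**
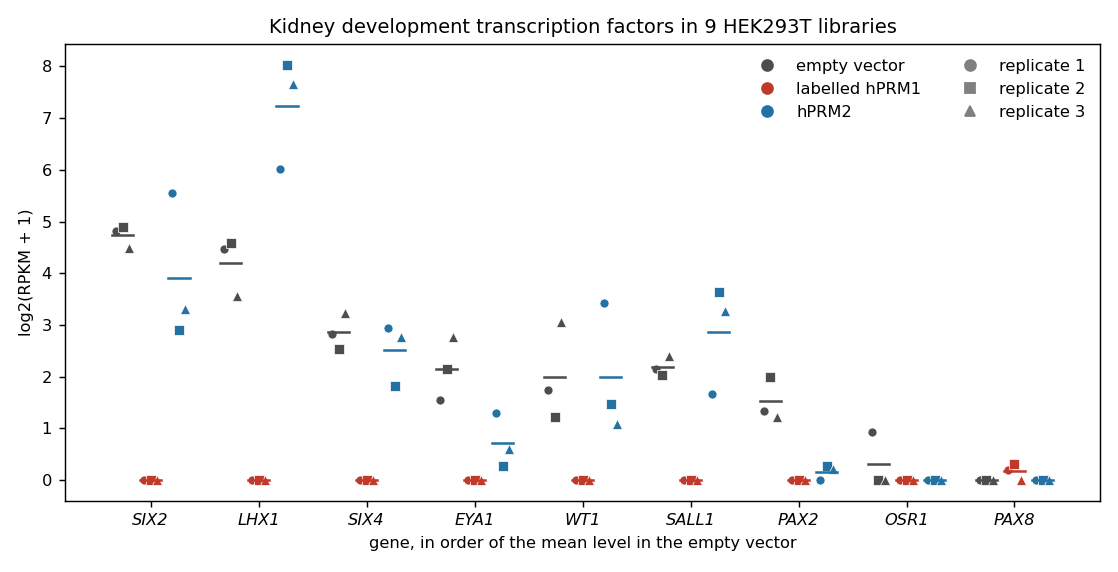
Level of each gene as log2(RPKM + 1), in order of its empty vector mean, with 1 point per library, colour for the group, shape for the replicate number and a bar at the mean of each group. All libraries labelled hPRM1 sit at 0 for every gene except PAX8, LHX1 is higher in each hPRM2 library than in any empty vector library, and SIX2 and WT1 are highest in hPRM2 replicate 1.

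In the libraries labelled hPRM1, 8 of the 9 genes were at 0 in every library, and the 9 together summed to 0.151, 0.235 and 0 RPKM against 59.2 to 67.3 RPKM in the empty vector. No library of this group overlapped the empty vector for the 7 genes above, as was so for 80.8% of all genes tested. Set against the 3 reads that a 0 allows, taking the lowest empty vector library and the highest limit per library, SIX2, which has 1 annotated transcript, was at least 58.7-fold lower. For genes with several transcripts the bound depends on the transcript the reads came from. At the transcript length that gave whole reads in most libraries it was 40.5-fold for SIX4, 21.3-fold for SALL1, 9.91-fold for EYA1, 7.16-fold for PAX2 and 4.10-fold for WT1. With the shortest annotated transcript it was 8.89-fold for SIX4 and 3.95-fold for LHX1, and no bound can be given on that length for SALL1, EYA1, PAX2 or WT1. All these bounds are on a gene's share of the reads on genes. In the libraries labelled hPRM1 the globin gene HBB was at 892449, 798019 and 765727 RPKM. Its part in these shares, and so in the bounds, was not tested. In bulk RNA, fewer cells that express a gene and less of its RNA per cell cannot be told apart.

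limma called all 7 tested genes lower, while 62.5% of the 13588 genes tested in this comparison were called lower as well and 12.9% higher (adjusted p at most 0.05 with Benjamini-Hochberg correction, and at least 2-fold). These 7 passed the filter on low values through the empty vector libraries alone and so had to differ, and the count says nothing particular about them. OSR1 and PAX8 did not pass the filter. The fitted difference was -4.73 on the log2 scale for SIX2 (SE 0.21, limma adjusted p = 5.19e-06) and -4.21 for LHX1 (SE 0.32, limma adjusted p = 3.42e-05). It ran from -1.52 for PAX2 to -2.87 for SIX4 among the others, and the adjusted p of WT1, the largest of the 7, was 0.0058. With values at 0 on one side, these differences depend on the pseudocount of 1 and are no bounds. The median of the 7 was -2.20, against -1.72 over all genes tested, a gap that the filter leaves without meaning for these 7. Rescaling by median of ratios moved the median over all genes to -0.12, under which PAX2 was no longer called (-0.89).

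In hPRM2, 6 of the same 7 genes were above 0 in every library and PAX2 in 2 of 3, and LHX1 was the one with more RPKM than the empty vector in each library. LHX1, a LIM homeodomain protein needed for the nephric duct and again for the forming nephron, was at 63.4, 261 and 201 RPKM in hPRM2 replicates 1, 2 and 3, against 21.2, 23.0 and 10.7 RPKM in the empty vector. The groups did not overlap, and the mean of 175 ± 101 RPKM (SD, n = 3) was 9.55 times that of the empty vector. The fitted difference was 3.03 on the log2 scale (SE 0.62, 95% interval 1.57 to 4.48), and the limma adjusted p over 13126 genes was 0.0534, just short of the threshold. LHX1 made up 32.8%, 34.2% and 18.2% of the summed RPKM of the 9 genes in the empty vector and 49.1%, 92.0% and 88.9% in hPRM2.

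LHX1 passed the threshold in 3 alternative fits. With hPRM2 replicate 1 left out, the difference was 3.64 (limma adjusted p = 0.00699), with all 9 libraries in 1 fit the adjusted p was 0.0123, and with quantile normalization 0.0417. Those fits called 18.5%, 13.8% and 2.39% of all genes, against 1.36% called higher and 1.37% called lower in the comparison as planned. Over all alternatives the difference stayed between 2.63 and 3.64 and the adjusted p between 0.00699 and 0.357.

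The read support of LHX1 depends on which of its 5 annotated transcripts the reads came from, as these run from 512 to 3425 bases and no single length gave whole reads. With the longest, the 3 empty vector libraries held 534, 626 and 368 reads and the hPRM2 libraries 534, 1055 and 1027. With the shortest, the numbers were 44.1, 51.6 and 30.4 reads against 44.1, 87.1 and 84.8. LHX1 spanned 2.82 to 73.2 RPM in the empty vector and 16.6 to 829 RPM in hPRM2 across both lengths. If the same transcript was used in every library the groups do not overlap, whereas a shift from long to short transcripts could raise RPKM without more reads. A change in the transcript used was not tested. LHX1-DT, a divergent transcript that starts 123 bases from the LHX1 gene on the other strand, was at 4.76, 17.1 and 19.2 RPKM in the empty vector and at 0, 3.89 and 9.86 RPKM in hPRM2, a difference that was not called.

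EYA1 and PAX2 were lower in every hPRM2 library than in any empty vector library but were not called. PAX2, a paired domain factor, was at 0, 0.206 and 0.163 RPKM in hPRM2 against 1.34 to 3.00 RPKM in the empty vector. The hPRM2 libraries held 0, 1 and 1 of its reads, where the mean level of the empty vector would give 19.7, 9.47 and 12 reads at their depths. Its fitted difference was -1.36 (SE 0.37, limma adjusted p = 0.0917). EYA1 was at 1.44, 0.215 and 0.510 RPKM against 1.93 to 5.78 RPKM in the empty vector. Its 14, 1 and 3 reads compare with 36, 17.3 and 21.9 reads at the empty vector mean. The fitted difference of EYA1 was -1.43 (SE 0.54, limma adjusted p = 0.162). In the fit of all 9 libraries, in which the libraries labelled hPRM1 at 0 enter the estimate of the spread, both passed the threshold (adjusted p = 0.0123 for PAX2 and 0.0453 for EYA1).

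Thus 3 of the 7 tested genes, LHX1, PAX2 and EYA1, did not overlap between hPRM2 and the empty vector, and 35.9% of all genes tested did not overlap. PAX2 passed the filter through the empty vector alone, so its direction was bound and it adds nothing to this count. limma called 0 of the 7, with the same 3, PAX2 among them, at an unadjusted p under 0.05, and both per-gene unequal-variance tests called 0 as well. The median difference of the 7 was -0.36, against -0.72 over all 13126 genes, a median that moved to -0.25 with median of ratios and -0.42 with quantile normalization.

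SIX2, WT1, SIX4 and SALL1 overlapped between the groups. SIX2 was at 45.7, 6.43 and 8.91 RPKM in hPRM2, so that replicate 1 was above and replicates 2 and 3 were below all empty vector libraries. These values stood on 237, 16 and 28 reads. The difference of -0.82 had a 95% interval from -2.57 to 0.94 (limma adjusted p = 0.495). Without hPRM2 replicate 1 it was -1.63 and was called lower (limma adjusted p = 0.0358). WT1 was likewise highest in replicate 1, at 9.70, 1.77 and 1.12 RPKM on 57, 5 and 4 reads, and its difference was -0.01 with an interval from -1.998 to 1.98 (limma adjusted p = 0.995). This direction flipped to 0.36 with median of ratios and 0.42 with quantile normalization.

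SALL1 had the opposite order, with 2.16 RPKM in hPRM2 replicate 1, below the empty vector, and 11.4 and 8.68 RPKM in replicates 2 and 3, above it. Replicates 2 and 3 held about 71.4 and 68.4 of its reads, where the empty vector mean would give 22.5 and 28.4. The fitted difference was 0.66 with an interval from -0.96 to 2.29 (limma adjusted p = 0.551), and 1.26 without replicate 1 (adjusted p = 0.0761). SIX4 was at 6.68, 2.53 and 5.82 RPKM, with replicate 2 below the empty vector range and the other two within it, and had a difference of -0.36 and an interval from -1.74 to 1.03 (limma adjusted p = 0.713). This value was 0.10 with median of ratios and 0.19 with quantile normalization.

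hPRM2 replicate 1 thus held 5.96 times the SIX2, 6.70 times the WT1 and 3.98 times the EYA1 of the mean of replicates 2 and 3, and 0.275 times the LHX1 and 0.214 times the SALL1. The counting error of the smaller values is wide, since WT1 and EYA1 rest on 5 reads or fewer in replicates 2 and 3.

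**Figure D3:**
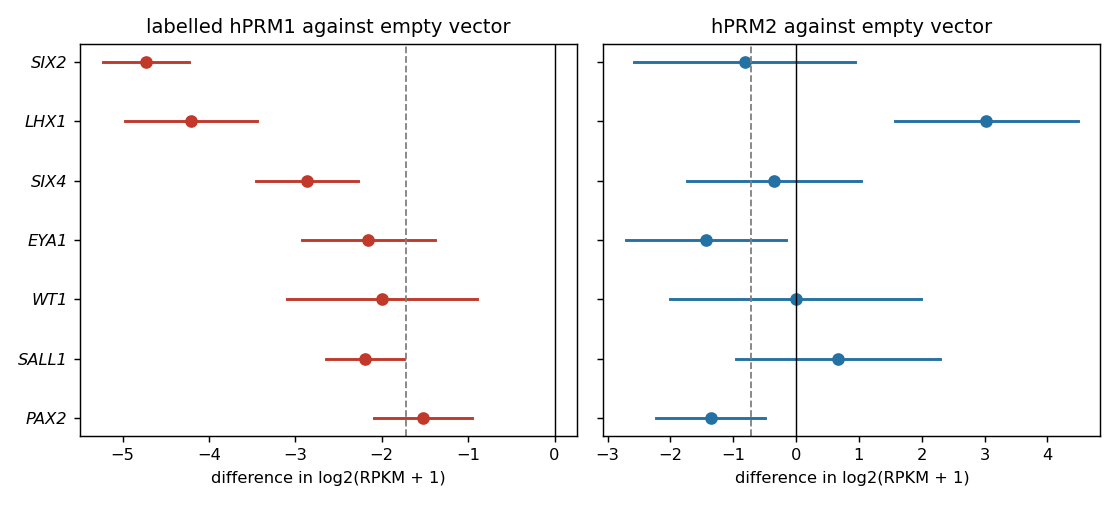
Difference in log2(RPKM + 1) from the empty vector with its 95% interval from limma, for the libraries labelled hPRM1 (left) and hPRM2 (right), with a dashed line at the median of all genes tested and a solid line at 0. All 7 genes lie below 0 on the left, while on the right the intervals of LHX1, EYA1 and PAX2 leave out 0 before adjustment.

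The libraries labelled hPRM1 were also compared with hPRM2 directly, without the empty vector. limma called 5 of 5 tested genes lower in the former, among 37% of 11756 genes called lower and 16% called higher. The fitted differences were -7.23 for LHX1 (SE 0.59), -3.92 for SIX2 (SE 0.74), -2.86 for SALL1 (SE 0.57), -2.51 for SIX4 (SE 0.38) and -1.99 for WT1 (SE 0.62). All 5 passed the filter through hPRM2 alone, so that this count too was bound to fall on 1 side. The median over all genes was -0.97 and moved to 0.49 with median of ratios and to 0.11 with quantile normalization. All 5 were at 0 in every library labelled hPRM1, so that their staying lower under both was bound as well. WT1 was no longer called with quantile normalization. The call of WT1 (limma adjusted p = 0.035) was lost when any library labelled hPRM1 was left out, with an adjusted p of 0.107 without replicate 3, 0.108 without replicate 1 and 0.109 without replicate 2. EYA1, PAX2, PAX8 and OSR1 were too low to be tested. Blood markers were high in the same libraries, as given above.

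Paralogs of the 9 genes were looked at next. Of 26 such genes, 15 could be tested for the libraries labelled hPRM1, and 14 were called lower and 1 higher than in the empty vector, where 62.5% of all genes were lower and 12.9% higher. Of the 15, 12 passed the filter through the empty vector alone and PAX5 through the libraries labelled hPRM1 alone, so that their direction was bound. SIX5 was among those called lower, at 42, 32.4 and 50.9 RPKM in the empty vector against 0.148, 0.825 and 0.997 RPKM. The paralog called higher was PAX5, a B cell factor, at 3.45, 2.64 and 2.33 RPKM against 0.784, 0 and 0.0111 RPKM in the empty vector, in the same libraries whose lymphocyte markers summed to 977 to 1340 RPKM. Against hPRM2, 8 paralogs were tested, of which 6 were called lower, among them OSR2, and 1 higher, again PAX5, beside 37% and 16% of all genes, and 5 of the 8 passed the filter through hPRM2 alone. The median difference of the 15 paralogs in the libraries labelled hPRM1 against the empty vector was -3.52, against -1.72 over all genes. As the direction of 12 of them was bound to be lower, the gap between these medians is no result about the paralogs.

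Between hPRM2 and the empty vector, 2 of 17 tested paralogs were called, both lower, beside 1.37% of all genes called lower and 1.36% higher. Both passed the filter through the empty vector alone and could only come out lower. SALL3, a zinc finger relative of SALL1, was at 8.08, 11.3 and 26.7 RPKM in the empty vector and at 0, 0 and 0.296 RPKM in hPRM2 (difference -3.74, SE 0.62, limma adjusted p = 0.0374). LHX8, a LIM homeodomain relative of LHX1, was at 3.33, 3.55 and 2.20 RPKM in the empty vector and at 0 in all hPRM2 libraries (difference -1.99, SE 0.36, limma adjusted p = 0.0416). LHX8 and LHX1 are of 1 family. Their differences from the empty vector had opposite signs, but the sign of LHX8 was bound and LHX1 was not called.

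Among 43 other transcription regulators of the kidney, 24 were tested in the libraries labelled hPRM1, and 21 were called lower and 0 higher, beside 62.5% of all genes lower and 12.9% higher. Of the 24, 17 passed the filter through the empty vector alone, CITED1 and HOXD11 among them. CITED1, a coregulator that marks early nephron progenitors, was at 165, 111 and 87.1 RPKM in the empty vector and at 0 there (difference -6.88, SE 0.27). HOXD11, a homeobox gene of the kidney mesenchyme, was at 53.3, 62.4 and 82.0 RPKM against 0 (difference -6.04, SE 0.23). In hPRM2, 0 of 25 tested regulators were called, and CITED1 was at 45.2, 54.8 and 133 RPKM and HOXD11 at 122, 44.4 and 38.6 RPKM, both overlapping the empty vector. Against hPRM2, 12 of 17 were lower in the libraries labelled hPRM1 and 0 higher, led by the same pair, beside 37% and 16% of all genes, and 9 of the 17 passed the filter through hPRM2 alone.

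Of 24 ligands that act in kidney development, 7 were tested in the libraries labelled hPRM1, and 6 were called lower and 1 higher, beside 62.5% and 12.9% of all genes. The 6 passed the filter through the empty vector alone. SLIT2, a guidance ligand that limits where the ureteric bud forms, was at 104, 84.2 and 35 RPKM in the empty vector and at 0 there. BMP4, a growth factor of the ureteric mesenchyme, was at 34.7, 55.7 and 63.8 RPKM against 0.117, 0.326 and 0.131 RPKM. GREM1, a secreted BMP antagonist, was the ligand called higher, at 110, 296 and 632 RPKM in libraries labelled hPRM1 against 7.60, 6.06 and 2.77 RPKM (difference 5.49, SE 0.66, limma adjusted p = 0.000261). In hPRM2, 0 of 8 tested ligands were called. Against hPRM2, 3 of 4 tested ligands, BMP4 and SLIT2 among them, were lower in the libraries labelled hPRM1 and GREM1 was higher. This stands beside 37% of all genes lower and 16% higher. All 3 of the lower ligands had passed the filter through hPRM2 alone, so that their direction was bound.

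Of 22 receptors and modulators, 13 were tested in the libraries labelled hPRM1, and 11 were called lower and 0 higher, led by SFRP1 (14.6, 12.7 and 13.1 RPKM against 0) and SPRY1 (24.6, 27.2 and 26.8 RPKM against 0.436, 3.68 and 0.162 RPKM). Over all genes 62.5% were lower and 12.9% higher, and 7 of the 13 passed the filter through the empty vector alone. SFRP1 binds WNT ligands, and SPRY1 restrains the RET pathway of the ureteric bud. In hPRM2, 0 of 15 were called. Against hPRM2, 5 of 10 were lower in the libraries labelled hPRM1, led by SPRY1 and FGFR2, beside 37% of all genes lower and 16% higher. Of the 10, 4 passed the filter through hPRM2 alone, and 3 of these were called lower. The receptor gene NOTCH1 was higher, at 4.31, 4.83 and 3.61 RPKM against 1.96, 0.288 and 0.412 RPKM. Of 8 antisense and divergent neighbours 4 were found in the table and only LHX1-DT could be tested. It was called lower in the libraries labelled hPRM1, where it was at 0. As it passed the filter through the empty vector alone, its direction was bound.

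The genes whose pattern over the 9 libraries was most like that of SIX2, SIX4, EYA1, LHX1, WT1 and SALL1, the 6 members above 0 in at least 6 libraries, were NAA38, PPIA, ATP5MC1, BRK1 and COX8A, out of 12599 autosomal genes compared. Likeness was the correlation with the mean of the standardised values of the 6. It was 0.997 for NAA38 and PPIA and 0.996 for the other three, over 9 libraries that share their low values in the group labelled hPRM1. In RPKM, NAA38 was at 680, 622 and 1043 with the empty vector, at 34.2, 45.5 and 34.9 where the label was hPRM1 and at 1039, 497 and 463 with hPRM2. All 5 kept values above 30 RPKM in the libraries labelled hPRM1, where the 6 members were at 0. How far the likeness rests on the libraries labelled hPRM1 was not tested. Over the other 6 libraries the members did not share a single pattern. There SIX2, SIX4, EYA1 and WT1 correlated positively with one another, from 0.43 (EYA1 with WT1) to 0.68 (SIX4 with EYA1). LHX1 correlated with SALL1 at 0.72. Every correlation of LHX1 or SALL1 with the former genes was negative, from -0.40 (LHX1 with WT1) to -0.999 (SIX2 with SALL1). Each is over 6 libraries that pool the empty vector with hPRM2, whose replicate 1 stood apart. The part of that library or of the groups in these correlations was not tested.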

How the data were processed

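Total RNA of sorted HEK293T cells was sequenced with a QuantSeq 3′ kit on an Illumina NovaSeq instrument. The authors processed the reads with nf-core/rnaseq (FastQC, Cutadapt, STAR and Salmon, versions not given in the sources used here; genome build hg38 per the submitters' processing notes), removed mitochondrial genes and deposited RPKM values for 57338 genes without counts. The annotation is not given. Groups came from the sample labels.

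Library totals were recovered from the value that 1 read gives in single-transcript GENCODE 29 genes (250 bases subtracted from the length, 84.9% to 89.0% of values whole within 0.001). Reads of genes with several transcripts use the length that made most values whole, and bounds elsewhere. Both steps were chosen after seeing the data and cover counting error only. No count test was run, since RPKM was deposited and whole reads were not recovered for nearly all genes.

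Each pair of groups was fitted alone in R 4.3.3 with limma 3.58.1 (lmFit, eBayes with trend and robust) on log2(RPKM + 1), for genes with at least 1 RPKM in at least 3 of 6 libraries, with Benjamini-Hochberg adjustment, and called at an adjusted p of at most 0.05 and at least 2-fold. The steps were tested on simulated data. pandas 2.3.3, numpy 2.4.6 and matplotlib 3.10.9 under Python 3.11.15 gave the other values.

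The 9 genes and the 12 gene lists were chosen with earlier results of these data known. All 9 genes are named, and from each list the 2 called genes per direction with the largest difference. Other genes named with values were chosen after their values were seen (GGT1, OSR2 in hPRM2, GATA3, EMX2, PAX8-AS1, SLC25A39, VCAN and LHX1-DT in hPRM2). Alternatives were other pseudocounts (0.1 and 5), filters (none, or 10 RPKM), scalings, 1 fit over all 9 libraries, the replicate number as a block, per-gene tests and leaving out each library. A left-out library still counted in the filter, a choice made after seeing the data. Some items are not reported here. Protein sequences were not analysed here.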

Additional observations from a re-analysis of the deposited data

How the results depend on the processing

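Of 290 values for single members under the alternatives (19 differences), 248 kept their direction and their side of the threshold, 27 lost the call, 6 gained it and 9 changed sign. Every tested member was at 0 in the libraries labelled hPRM1, so in the comparisons with that group the direction was bound. Those values say nothing about how stable a direction is. Those that changed sign were not called in any setting: in hPRM2 against the empty vector WT1 was 0.033 with a pseudocount of 5, 0.36 with median of ratios, 0.42 with quantile normalization, 0.16 with the per-gene test on RPKM, 0.52 without empty vector replicate 3, 0.25 without hPRM2 replicate 2 and 0.44 without hPRM2 replicate 3 (left-out libraries gave -0.72 to 0.52), and SIX4 was 0.10 with median of ratios and 0.19 with quantile normalization.

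For the libraries labelled hPRM1 against the empty vector, 10241 genes were called, 5837 with a minimum of 10 RPKM and 4514 with the per-gene test on RPKM. Of the 7 members called, 3 were called with a pseudocount of 5, 2 with a minimum of 10 RPKM, where 2 were tested, and 2 with the per-gene test on RPKM. Leaving out a library gave 9829 to 10332 calls and 7 members each time. The split of calls was 1750 higher and 8491 lower, 3919 and 3925 with median of ratios, and 3404 and 4672 with quantile normalization.

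For hPRM2 against the empty vector, 359 genes were called (179 higher, 180 lower), 89 with no filter, 167 with a minimum of 10 RPKM, 2060 in the fit of all 9 libraries, 57 with the replicate block, 9 with the per-gene test on RPKM and 0 with it on log2 values, where 2206 had an unadjusted p under 0.05. The count was 2429 without hPRM2 replicate 1, 27 without replicate 2 and 84 without replicate 3, and 18, 41 and 12 without empty vector replicates 1, 2 and 3. Median of ratios gave 220 higher and 82 lower, quantile normalization 235 and 79, and a pseudocount of 5 gave 152 and 101. Members called were 0, but 1 with quantile normalization, 3 with all 9 libraries, and 0 to 2 over left-out libraries, with 2 without hPRM2 replicate 1.

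For the libraries labelled hPRM1 against hPRM2, 6234 genes were called, 3750 with a minimum of 10 RPKM, 219 with the per-gene test on RPKM and 3486 with it on log2 values. Of the 5 members called, 3 were called with a pseudocount of 5, 1 with a minimum of 10 RPKM, where 1 was tested, 0 and 1 with these per-gene tests, and 4 or 5 over left-out libraries. The split was 1879 higher and 4355 lower, 3662 and 2148 with median of ratios, and 3114 and 2572 with quantile normalization.

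The replicate numbers did not pair the libraries: same-numbered deviations correlated at -0.03 to 0.04, -0.08 to 0.09 and 0.01 to 0.11 in the 3 comparisons. The replicate block gave 57 calls for hPRM2 and 0 members, and called 7 and 5 members in the other comparisons. Depth limits PAX2, EYA1 and WT1 in hPRM2, where 2 libraries hold 5 reads or fewer of each. Where a count moved, the cause was not tested, except that a minimum of 10 RPKM tested fewer genes.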

Other observations

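Markers of mature kidney segments were nearly absent from these cells. Of 18 such genes, 10 were at 0 in all empty vector libraries and 2 had a mean of at least 1 RPKM. GGT1, a brush border enzyme, was the exception in hPRM2, at 75.4, 83.4 and 54.0 RPKM against 0, 5.37 and 11.6 RPKM in the empty vector and 5.45, 7.89 and 7.58 RPKM where the label was hPRM1. It was not called against the empty vector and was called higher in hPRM2 than in the latter group (difference of that group from hPRM2 -3.17, SE 0.34, limma adjusted p = 0.000626).

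A paralog stood apart in a single hPRM2 library. OSR2, a relative of OSR1, was at 267 RPKM in hPRM2 replicate 1, and at 5.07 and 5.09 RPKM in replicates 2 and 3, against 8.70 to 12.2 RPKM in the empty vector. In the libraries labelled hPRM1, where the 9 kidney factors were at or near 0, GATA3 was at 11.6, 22.5 and 13.9 RPKM and EMX2 at 3.74, 8.17 and 27.5 RPKM. Neither was called against the empty vector. GATA3 is also a T cell factor, and lymphocyte markers were high in the same libraries. Their part in its level was not tested. LCK, a lymphocyte kinase, was the lymphocyte marker called higher in hPRM2, at 70.6, 45.3 and 33.3 RPKM against 0, 2.09 and 3.03 RPKM in the empty vector, while 11 of the 14 lymphocyte markers were at 0 in all hPRM2 libraries.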
